A study of Mus musculus with 17 samples.

Results

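The genes of mitosis and chromosome segregation were followed here in cultured mouse astrocytes. They are 40 named genes, chosen by symbol from rows of a table of gene counts with a mean count of at least 10 over its libraries, and 40 of the 40 symbols met that rule among the 56691 gene rows. The 17 libraries came from astrocytes of C57BL/6 mouse pups at postnatal day 2, taken from whole brain without olfactory bulbs and cerebellum and purified by immunopanning, in which antibody-coated dishes deplete microglia and oligodendrocyte precursors and a HepaCAM antibody then retains astrocytes. All 5 groups shared this purification and a serum-free medium with the growth factor HBEGF. In one experiment, 3 cultures received SAG, a small-molecule agonist of Smoothened in the SHH pathway, at 500 ng/ml from day 3 in vitro for 3 days, and 3 cultures received its solvent DMSO on the same days. In the other, FGF2 (4 cultures) or FGF10 (3 cultures), both at 50 ng/ml, or their solvent PBS (4 cultures) was added at day 2 in vitro for 7 days. For FGF2 the methods name 3 replicates and the labels 4, of which none was left out. The methods call the replicates biological and mention mice of several generations, without tying a library to a litter or preparation, so the p-values measure the spread between these libraries.

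Mitosis begins when the kinase CDK1, bound to cyclin A or cyclin B, brings about chromosome condensation, breakdown of the nuclear envelope and assembly of the spindle. The spindle checkpoint holds the anaphase-promoting complex (APC/C) inactive until every kinetochore is attached. The APC/C then marks cyclin B and securin for destruction, the sister chromatids separate, and the cell divides by cytokinesis. Transcripts of these genes are low in resting cells and accumulate in G2 and M phase, and astrocytes of the early postnatal mouse brain still divide. Many promoters of this class carry a cell cycle genes homology region, the core TTTGAA, which the DREAM and MYB-MuvB complexes contact, and CCAAT boxes, which NF-Y binds.

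Promoter windows from RefSeq (build GRCm38.p6, the build named in the submitters' processing notes without its patch), 250 bases before to 50 after the annotated start, were at hand for 34 of the 40 genes. *Smc4*, *Ccna2*, *Kif20a*, *Aurkb*, *Incenp* and *Tpx2* were not matched. The core TTTGAA stood on either strand in the windows of 27 of the 34 genes (79.4%), against 20.2% of all 27025 genes in the same table. A CCAAT box on either strand was present for 28 of 34 (82.4%, against 41.1% of all genes), and both motifs together for 25 (73.5%, against 7.97%). Among 63 matched other mitosis genes, outside the 40, TTTGAA was found for 35 (55.6%), CCAAT for 38 (60.3%) and both for 25. Among 35 matched S-phase genes, TTTGAA was found for 5 (14.3%) and CCAAT for 22 (62.9%). The variant core TTCGAA was found for *Bub1*, *Bub1b* and *Top2a* (8.82%, against 1.8% of all genes). The windows of *Birc5*, *Bub1*, *Ccnb1*, *Cenpe*, *Mad2l1*, *Ncaph* and *Nusap1* held no TTTGAA, which says only that these letters were not in these windows. The 8 stretches that follow, 120 bases before to 30 bases from the start on, show where the motifs lie in promoters of genes from different roles, with *Birc5* as one that has neither motif. Capitals mark the core TTTGAA, which reads TTCAAA where it lies on the opposite strand of the gene. They likewise mark the CCAAT box, which on that strand reads ATTGG, and the variant core named before, which reads alike on both. Each stretch runs 5′ to 3′ along its gene.
Cdk1: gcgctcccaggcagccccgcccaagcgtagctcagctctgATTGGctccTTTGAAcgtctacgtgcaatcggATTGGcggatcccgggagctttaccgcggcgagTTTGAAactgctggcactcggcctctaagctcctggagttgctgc
Ccnb2: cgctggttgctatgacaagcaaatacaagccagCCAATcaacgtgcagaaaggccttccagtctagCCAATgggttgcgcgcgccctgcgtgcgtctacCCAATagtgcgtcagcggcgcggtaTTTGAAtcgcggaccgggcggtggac
Cdc20: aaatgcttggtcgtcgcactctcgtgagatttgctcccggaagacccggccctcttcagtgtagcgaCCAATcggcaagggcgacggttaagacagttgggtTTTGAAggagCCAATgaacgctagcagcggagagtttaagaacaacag
Ube2c: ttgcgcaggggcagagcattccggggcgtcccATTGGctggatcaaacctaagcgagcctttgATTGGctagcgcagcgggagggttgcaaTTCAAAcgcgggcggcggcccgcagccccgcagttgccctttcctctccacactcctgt
Top2a: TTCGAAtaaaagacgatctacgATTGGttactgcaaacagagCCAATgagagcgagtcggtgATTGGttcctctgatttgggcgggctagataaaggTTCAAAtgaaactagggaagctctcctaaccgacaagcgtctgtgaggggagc
Kif11: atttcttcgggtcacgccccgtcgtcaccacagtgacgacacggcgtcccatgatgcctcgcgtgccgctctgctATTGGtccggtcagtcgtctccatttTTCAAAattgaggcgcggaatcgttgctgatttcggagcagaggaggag
Cenpf: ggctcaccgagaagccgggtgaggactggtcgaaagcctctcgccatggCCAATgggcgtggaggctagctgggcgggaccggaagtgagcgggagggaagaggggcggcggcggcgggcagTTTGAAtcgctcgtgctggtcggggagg
Birc5: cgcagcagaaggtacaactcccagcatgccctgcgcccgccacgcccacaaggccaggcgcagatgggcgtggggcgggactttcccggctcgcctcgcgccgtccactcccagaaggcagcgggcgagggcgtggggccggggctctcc
In GRCm38 they lie at chr10:69352883-69353032 (- strand) for *Cdk1*, chr9:70421525-70421674 (- strand) for *Ccnb2*, chr4:118437314-118437463 (- strand) for *Cdc20*, chr2:164769809-164769958 (+ strand) for *Ube2c*, chr11:99024160-99024309 (- strand) for *Top2a*, chr19:37376262-37376411 (+ strand) for *Kif11*, chr1:189688057-189688206 (- strand) for *Cenpf* and chr11:117849117-117849266 (+ strand) for *Birc5*. The first bases of each transcript are included in them.

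Total counts ran from 17481727 to 68342287 per library. The libraries were made from the 3′ end of transcripts, so that the reads a transcript gives depend little on its length. On that basis CPM levels are set side by side between genes, though how evenly genes are captured was not tested. Levels are given as CPM, the usual counts scaled to equal library totals, with the totals normalized by edgeR's TMM method over all 17 libraries. Of 14 astrocyte markers, *Gjb6* was at 0 in every library but SAG replicate 3, *S100b* did not exceed 22.3 CPM, and the summed level of the list was between 3727 and 6743 CPM. The 12 markers of microglia or macrophages, cells that the CD45 dishes deplete, summed to at most 26.3 CPM, with 9 to 12 of them at 0 in each library.

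The levels of the 40 genes divided the libraries of the FGF experiment by replicate number. Their summed level was 813, 966, 4332 and 3758 CPM in PBS replicates 1 to 4, 1299, 1109, 5427 and 4209 CPM in FGF2 replicates 1 to 4, and 1028, 1142 and 4021 CPM in FGF10 replicates 1 to 3. It was 989, 990.5 and 830.2 CPM in the DMSO libraries and 1284, 1411 and 1148 CPM in the SAG libraries. The 5 libraries of replicates 3 and 4 thus stood above the other 12, with no overlap. As a share of all counts, the 40 genes made up 0.373% to 0.523% in those 5 libraries and 0.0817% to 0.139% in the others. Every one of the 40 genes had its highest level in one of the 5, namely 22 in FGF2 replicate 3, 8 in FGF2 replicate 4, 5 in FGF10 replicate 3, 3 in PBS replicate 4 and 2 in PBS replicate 3. None of the 40 was without a read in those libraries, whereas 1 to 8 were at 0 counts in each library of replicates 1 and 2 and 3 to 7 in each DMSO and SAG library. In bulk RNA, a change in the number of dividing cells and a change in RNA per cell cannot be told apart.

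**Figure D1:**
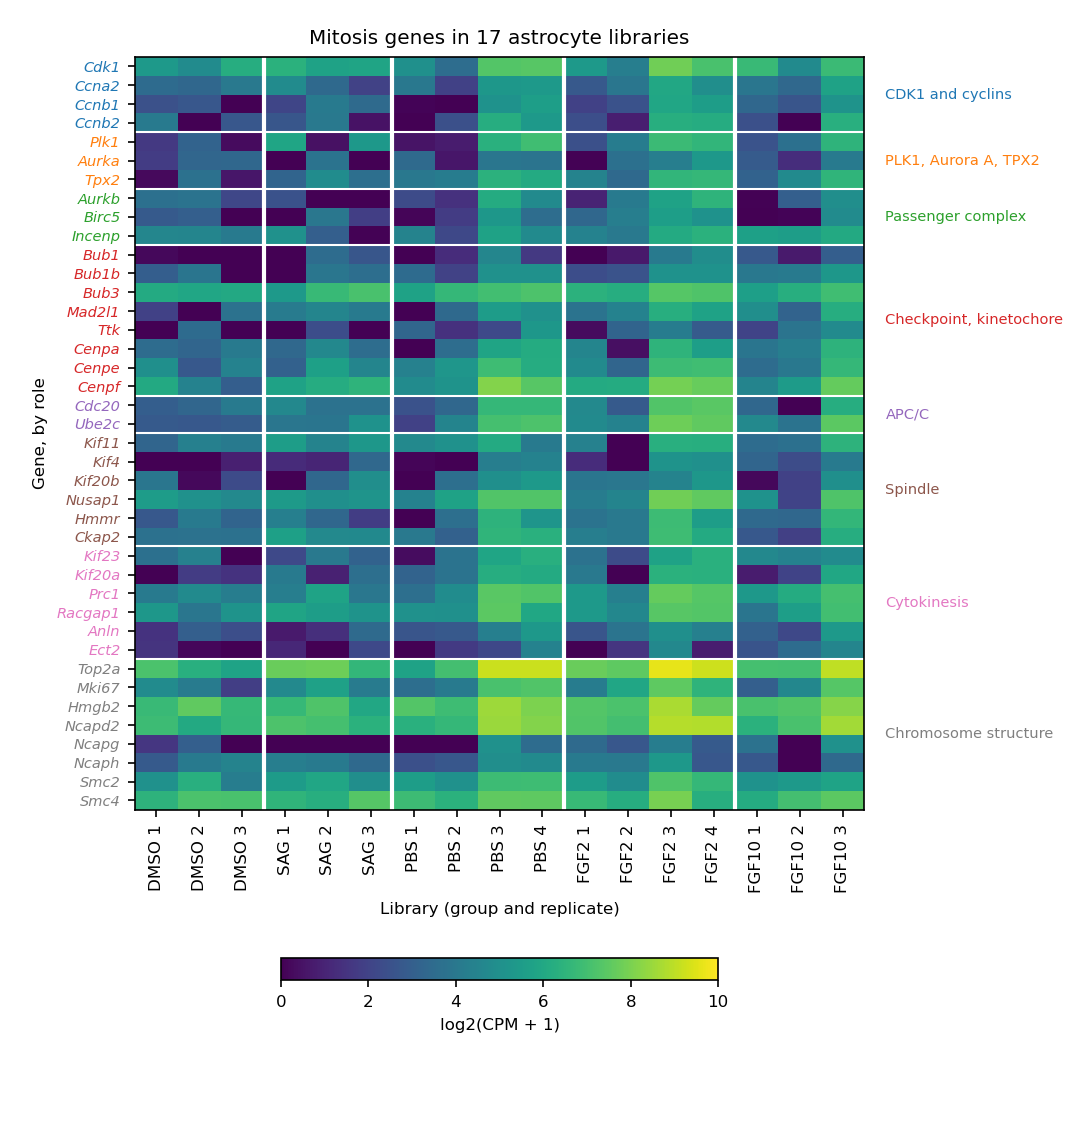
Heat map of log2(CPM + 1) for the 40 mitosis genes (rows, by role) in the 17 libraries (columns, by group). The columns of replicates 3 and 4 of PBS and FGF2 and of replicate 3 of FGF10 are brighter than the other 12, and dark cells, genes at 0 counts, are missing from them.

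The replicate number is not a labelled batch. The methods state that samples were multiplexed and the groups handled in parallel, but neither they nor the labels tie a replicate number to a culture date, litter or batch, and the split into replicates 1 and 2 (6 libraries) and replicates 3 and 4 (5 libraries) was known from earlier results of these data. Its p-values therefore describe these libraries and are not independent evidence of a difference. With treatment as a covariate, edgeR's quasi-likelihood test over 15849 genes called 30 of the 40 genes higher in replicates 3 and 4 at an adjusted p under 0.05 and 0 lower, where 2.1% of all genes tested were called higher and 1.6% lower. All 40 fitted values were above 0, from 0.86 for *Smc4* to 6.00 for *Kif4*, with a median log2(fold-change) of 2.46 beside −0.05 over all genes tested. For *Kif4*, at or near 0 in several libraries, the mean level was 10.3 times higher, less than the fitted value gives, and by ratio of mean levels *Ccnb2* differed most, at 29.7. For 31 of the 40 (77.5%) every library of replicates 3 and 4 was above every library of replicates 1 and 2, against 2.33% of all genes. Among the 100 genes with the smallest p there were 12 of the 40. For 21 of the 30 the call held when each of the 11 libraries was left out in turn. The other 9 (*Birc5*, *Bub1b*, *Ccna2*, *Cenpa*, *Hmmr*, *Incenp*, *Kif23*, *Kif4* and *Smc4*) lost it in at least 1 such fit. Leaving out PBS replicate 1 lost no call, and leaving out any of the other 10 lost 2 to 8, with 22 called without FGF2 replicate 3.

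**Figure D2:**
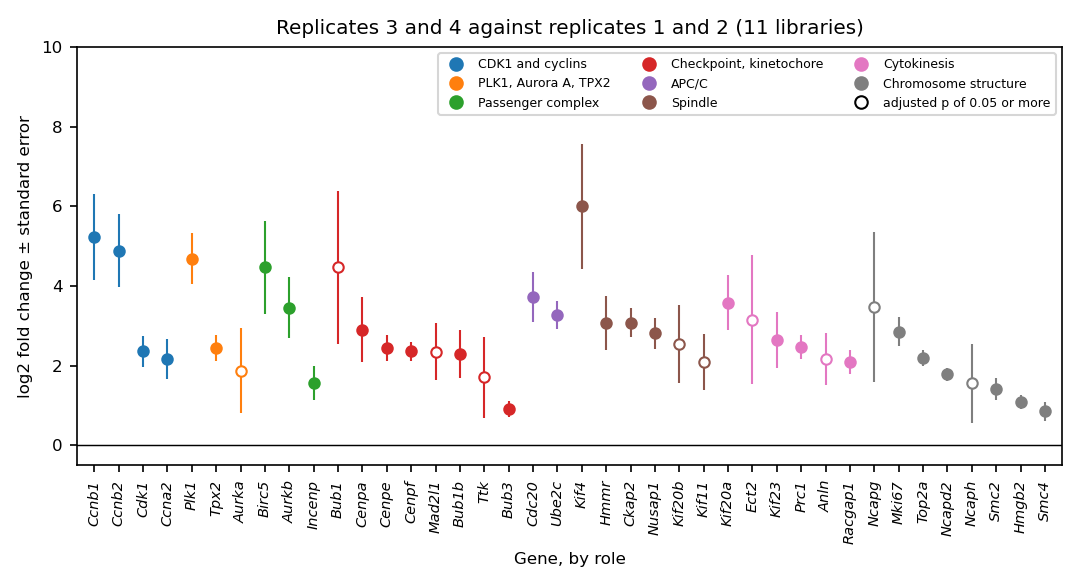
Fitted log2 fold changes (vertical axis, with standard errors) of the 40 genes (horizontal axis, by role) between replicates 3 and 4 and replicates 1 and 2 of the FGF experiment. All 40 lie above 0, filled points mark the 30 genes with an adjusted p under 0.05, and the genes of chromosome structure reach the lowest values.

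The cyclins and their kinase rose together, 4 of 4 called, with a median log2(fold-change) of 3.62. *Cdk1*, the kinase that starts mitosis, was at 40.7, 27.7 and 73.6 CPM with DMSO, 82.7, 52.8 and 56.5 with SAG, 31.3, 10.8, 158 and 167 with PBS, 40.3, 18.4, 224 and 139.5 with FGF2 and 109, 26.4 and 111 with FGF10, here and later in the order of the replicate numbers. Its 5 high libraries lay between 111 and 224 CPM, just above FGF10 replicate 1 at 109 CPM. *Ccnb1*, cyclin B1, which activates CDK1 at the start of mitosis, was at 4.64, 5.55 and 0 CPM with DMSO, 3.23, 16.5 and 10.01 with SAG, 0.0612, 0, 33.1 and 47.4 with PBS, 2.83, 4.8, 59.9 and 46.9 with FGF2 and 9.21, 5.27 and 34.6 with FGF10. Cyclin B1 was thus under 17 CPM in 12 libraries and over 33 CPM in the other 5. The log2(fold-change) between the sets was 5.23 (standard error 1.08) for *Ccnb1* and 4.89 (0.92) for *Ccnb2*, the second B cyclin, and 2.36 (0.39) for *Cdk1* and 2.17 (0.50) for *Ccna2*, cyclin A2, which acts in S phase and G2. For *Ccnb1*, at or near 0 in PBS replicates 1 and 2, the mean level was 12.0 times higher, less than the fitted value gives. By that ratio *Ccnb2* differed more, at 29.7.

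Of the kinases around the spindle poles and an activator of Aurora A, *Plk1* and *Tpx2* were called and *Aurka* was not. *Plk1*, the polo kinase that acts from mitotic entry to cytokinesis, had a mean of 99.0 CPM in replicates 3 and 4 and 6.64 CPM in replicates 1 and 2, a log2(fold-change) of 4.69 (standard error 0.64). *Tpx2*, which activates Aurora A and nucleates spindle microtubules, went from 16.3 to 88.1 CPM. *Aurka*, Aurora kinase A, had means of 5.05 and 20.1 CPM with every library of replicates 3 and 4 higher, and an adjusted p of 0.458 from edgeR.

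The chromosomal passenger complex corrects wrong attachments of chromosomes to the spindle, and 3 of its 3 listed members were called. *Aurkb*, its kinase, was at 11.9, 13.1 and 3.43 CPM with DMSO, 4.72, 0 and 0 with SAG, 3.82, 1.66, 69.5 and 26.8 with PBS, 0.997, 16, 52.9 and 89.99 with FGF2 and 0.0385, 7.21 and 29.7 with FGF10. All 5 libraries of replicates 3 and 4 were above the other 12, which included 2 SAG libraries at 0. *Birc5*, survivin, was at 6.18, 7.15 and 0 CPM with DMSO, 0, 14.8 and 2.61 with SAG, 0.102, 2.4, 37.9 and 11 with PBS, 9.07, 18.3, 47.6 and 33.6 with FGF2 and 0, 0.0824 and 27.7 with FGF10. PBS replicate 4 at 11 CPM lay below FGF2 replicate 2 at 18.3 CPM, so that the sets overlapped for *Birc5*. *Incenp*, the scaffold of the complex, changed least of the 3 (1.56, standard error 0.42), and FGF10 replicates 1 and 2 were at 50.7 and 46.9 CPM.

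The checkpoint and kinetochore genes gave 5 calls of 8. *Bub3*, a checkpoint protein that binds BUB1 and BUBR1 and is also expressed outside mitosis, was at 68.4, 59.4 and 65.1 CPM with DMSO, 41, 105 and 137 with SAG, 53.7, 101, 124 and 147 with PBS, 84.2, 73.8, 163 and 152 with FGF2 and 49, 76.2 and 120.4 with FGF10. Its levels spread over a narrow range, and replicates 3 and 4 of the FGF experiment overlapped with the SAG libraries but not with replicates 1 and 2 (log2(fold-change) 0.91, standard error 0.21). *Cenpf*, a large kinetochore protein made in G2, was at 65.9, 20.9 and 6.88 CPM with DMSO, 53.1, 71.1 and 90.8 with SAG, 27.1, 34.1, 280.5 and 166 with PBS, 68.3, 70.7, 243 and 202 with FGF2 and 21.8, 44 and 200.3 with FGF10. The 5 high libraries were at 166 CPM and above and the other 12 at 90.8 CPM and below. *Cenpe*, the kinetochore kinesin that moves chromosomes to the metaphase plate, went from a mean of 19.6 to 106 CPM, *Cenpa*, the histone H3 variant of centromeres, from 10.9 to 70.3 CPM, and *Bub1b*, BUBR1, from 8.95 to 34.0 CPM. *Mad2l1*, MAD2, which inhibits CDC20, was higher in every library of replicates 3 and 4 but did not pass the test over all genes (2.35, standard error 0.71, adjusted p = 0.0700 from edgeR). *Bub1* and *Ttk*, the kinases that recruit the checkpoint to kinetochores, had means under 19 CPM in both sets and overlapped.

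The 2 listed genes of the APC/C pathway were among those that differed most. *Cdc20*, its activator in mitosis, was at 6.86, 8.82 and 16.5 CPM with DMSO, 24.3, 12.7 and 12.5 with SAG, 4.73, 8.99, 99.9 and 99.1 with PBS, 25.1, 6.05, 154 and 172 with FGF2 and 9.17, 0 and 74 with FGF10. *Ube2c*, the ubiquitin-conjugating enzyme of the APC/C, was at 6.2, 5.66 and 6.44 CPM with DMSO, 14.4, 13.7 and 33.6 with SAG, 2.78, 22, 130.5 and 146 with PBS, 26.4, 20.7, 219.9 and 187 with FGF2 and 25.4, 13 and 176 with FGF10. For both, the lowest of the 5 high libraries (74.0 and 130.5 CPM) was over the highest of the other 12 (25.1 and 33.6 CPM). The log2(fold-change) was 3.72 (standard error 0.63) for *Cdc20* and 3.27 (0.35) for *Ube2c*, which ranked 28 by p among the 15849 genes.

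Of the 6 spindle genes, 4 were called. *Kif11*, the kinesin that pushes the spindle poles apart, was at 8.6, 19.4 and 16 CPM with DMSO, 46.7, 21.3 and 38.1 with SAG, 24.8, 32.2, 67.6 and 16.5 with PBS, 20, 0, 77.6 and 76.1 with FGF2 and 10.6, 11.8 and 86.4 with FGF10. PBS replicate 4 at 16.5 CPM lay among the low libraries, and *Kif11* was not called (2.10, standard error 0.70, adjusted p = 0.118 from edgeR). *Nusap1*, which bundles spindle microtubules, went from a mean of 25.0 to 175 CPM, *Ckap2*, a microtubule-stabilizing protein, from 10.9 to 87.3 CPM, *Hmmr*, which localizes TPX2 to the spindle, from 9.80 to 76.9 CPM, and *Kif4*, a kinesin of chromosome arms and the midzone, from 2.36 to 24.3 CPM. *Kif20b* had means of 7.17 and 32.1 CPM, with no overlap of the sets and an adjusted p of 0.211 from edgeR.

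Of the 6 cytokinesis genes, 4 were called as well. *Prc1*, which crosslinks the microtubules of the midzone, was at 16.1, 26.7 and 18 CPM with DMSO, 18.5, 54.8 and 14.6 with SAG, 11.6, 28.2, 172 and 157 with PBS, 41.2, 18.8, 197 and 164 with FGF2 and 39, 70.9 and 131 with FGF10. FGF10 replicate 2 at 70.9 CPM was the highest of the 12 low libraries, and the 5 others began at 131 CPM. The 2 subunits of centralspindlin, which positions the cleavage furrow, were both called: *Racgap1* at means of 31.6 and 138 CPM and *Kif23* at 12.4 and 59.7 CPM. *Kif20a*, a midzone kinesin, went from 6.73 to 73.0 CPM. *Anln*, anillin of the contractile ring, was at 6.78 and 29.8 CPM with no overlap of the sets but an adjusted p of 0.0614 from edgeR. *Ect2*, the exchange factor that activates RhoA at the furrow, was at 0.750 CPM in FGF2 replicate 4 and 3.54 CPM in PBS replicate 3, and was not called.

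The genes of chromosome structure included *Top2a*, *Ncapd2* and *Hmgb2*, the 3 highest of the 40 by mean level in replicates 3 and 4. Of the 8 genes 6 were called, with a median log2(fold-change) of 1.67, the lowest of the 8 roles. *Top2a*, topoisomerase II alpha, which untangles sister chromatids, was at 142, 78.8 and 54.2 CPM with DMSO, 207, 221 and 97.5 with SAG, 53.7, 128, 589.8 and 589 with PBS, 211, 185, 797 and 595 with FGF2 and 132, 129 and 531 with FGF10. It was the highest of the 40 genes in all 5 libraries of replicates 3 and 4, ranked 10 by p, and had a log2(fold-change) of 2.20 (standard error 0.19). *Mki67*, which coats mitotic chromosomes and is the usual marker of cycling cells, was at 27.3, 16.7 and 2.64 CPM with DMSO, 25.3, 51.9 and 16.9 with SAG, 11.2, 16, 139 and 156 with PBS, 17.6, 59.1, 183 and 90.1 with FGF2 and 7.25, 23.4 and 166 with FGF10. The lowest of the 5 high libraries, FGF2 replicate 4, was at 90.1 CPM, and the highest of the other 12, FGF2 replicate 2, at 59.1 CPM. *Hmgb2*, a chromatin protein abundant in dividing cells, was at 108, 187 and 104 CPM with DMSO, 104, 152 and 62.8 with SAG, 159, 117, 365 and 257 with PBS, 158, 143, 428 and 198 with FGF2 and 137, 155 and 292 with FGF10. *Smc4*, a condensin ATPase, was at 86.5, 142 and 138 CPM with DMSO, 93.5, 76.7 and 163 with SAG, 115, 82.5, 187 and 181 with PBS, 106, 74.6, 244 and 75.5 with FGF2 and 69.6, 126 and 176 with FGF10. For *Smc4* FGF2 replicate 4 was among the lowest of all 17 libraries, and the sets overlapped. Of the other condensin subunits, *Ncapd2* (means of 114 and 390.4 CPM) and *Smc2* (37.9 and 108 CPM) were called, and *Ncapg* (4.71 and 19.9 CPM) and *Ncaph* (7.98 and 22.2 CPM) were not.

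The fitted values were unequal among the 40 genes. As shares of the summed level, *Smc4* fell from a mean of 9.23% in replicates 1 and 2 to 3.96% in replicates 3 and 4, *Hmgb2* from 13.9% to 7.03% and *Bub3* from 6.94% to 3.28%. *Ccnb2* went from 0.214% to 1.58%, *Plk1* from 0.593% to 2.31%, *Cdc20* from 0.813% to 2.74% and *Ube2c* from 1.69% to 3.95%. *Top2a* (12.8% and 14.3%) and *Cdk1* (3.77% and 3.66%) took nearly level shares. These shares follow from the same levels as the fold changes and were not tested.

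**Figure D3:**
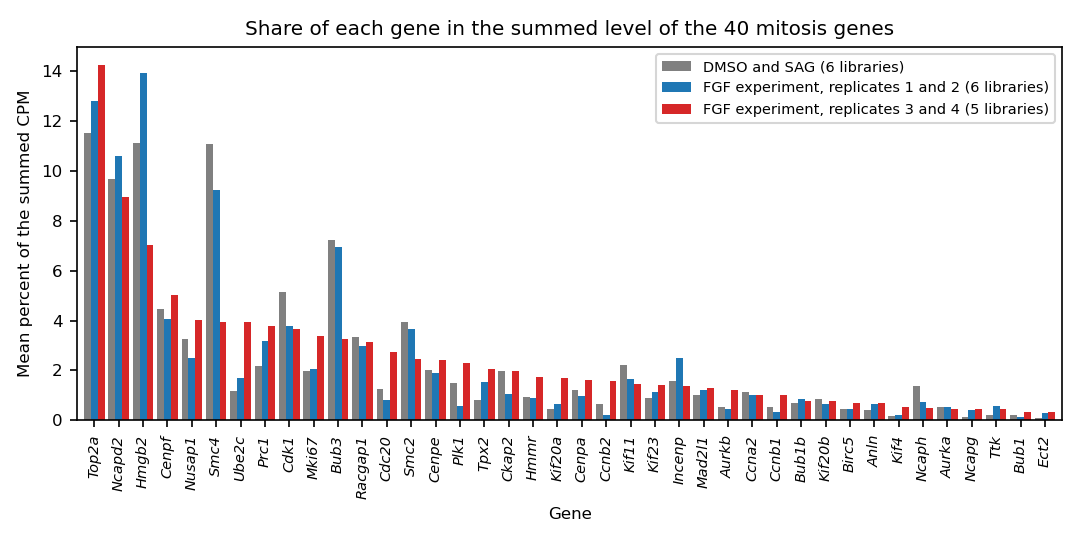
Mean share of each gene (horizontal axis) in the summed CPM of the 40 genes (vertical axis, percent) in the DMSO and SAG libraries, in replicates 1 and 2 and in replicates 3 and 4 of the FGF experiment. *Smc4*, *Hmgb2* and *Bub3* have lower bars in replicates 3 and 4, and *Ccnb2*, *Plk1*, *Cdc20* and *Ube2c* higher ones.

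Other mitosis genes were also called higher in replicates 3 and 4, and among the genes of DNA replication 1 was called. The difference between these lists and the 40 genes was not tested. Of 82 other mitosis genes, 18 were called higher and 0 lower between the sets, with a median log2(fold-change) of 2.17, which stayed at 2.17 with the 3 genes at or under 3 counts in every library of replicates 1 and 2 set to their bound. The 18 were *Aspm*, *Ccnf*, *Cdca3*, *Cdca8*, *Cenpw*, *Ckap2l*, *Dlgap5*, *Gtse1*, *Kif15*, *Kif22*, *Kif2c*, *Lmnb1*, *Pbk*, *Pimreg*, *Sgo1*, *Smc1a*, *Stmn1* and *Troap*. *Cdca8*, borealin, the fourth subunit of the passenger complex, was at 8.29, 16.9, 93.1 and 58.8 CPM with PBS. *Dlgap5*, which stabilizes spindle fibres, had no read in any library of replicates 1 and 2 and was at 14.8 to 28.6 CPM in replicates 3 and 4. Of 44 S-phase genes tested, 1 was called, *Lig1*, which joins replicated DNA fragments (1.06, adjusted p = 0.00774 from edgeR), and the median was 0.53. For 37 of the 44 (84.1%) the fitted value was above 0, against 47.5% of all genes. The summed level of the S-phase list was 1089 to 2320 CPM in replicates 3 and 4 and 875 to 958 CPM in replicates 1 and 2, without overlap. The 2320 CPM belonged to FGF2 replicate 3, and the other libraries of replicates 3 and 4 were at 1089 to 1340 CPM. The ratio of the summed level of the 40 genes to that of the 45 S-phase genes was 2.34 to 3.61 in replicates 3 and 4 and 0.848 to 1.39 in replicates 1 and 2. None of 7 CDK inhibitor genes was called, with 1 at an unadjusted p under 0.05 (982 higher and 1132 lower of all 15849 genes).

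Markers of cell types moved with the sets too. The 14 astrocyte markers summed to 5722 to 6743 CPM in replicates 1 and 2 and to 3727 to 4453 CPM in replicates 3 and 4. Of 13 tested, 12 had a fitted value below 0, against 8316 of all 15849 genes. At an adjusted p under 0.05 from edgeR, 5 of the 13 were called lower in replicates 3 and 4. They were *Gfap* (−2.82), *Clu* (−2.20), *Gja1* (−1.20), *Sox9* (−0.70) and *Slc1a2* (−0.57), and *Aldh1l1* was called higher (0.79). *Gfap*, an intermediate filament of reactive astrocytes, was at 257, 318, 67.3 and 44.9 CPM with PBS. The 7 oligodendrocyte precursor markers, a cell type that also divides at this age, summed to 201 to 387 CPM in replicates 1 and 2 and 121 to 270.5 CPM in replicates 3 and 4, with none called. Summed levels of the other lists in replicates 1 and 2 and in replicates 3 and 4 were 593 to 708 and 243 to 610 CPM for 8 oligodendrocyte markers, 163 to 249 and 56.1 to 184 CPM for 10 neuron markers, 14.4 to 64.7 and 0 to 9.36 CPM for 8 endothelial or mural markers, 32.0 to 85.7 and 20.2 to 50.9 CPM for 7 fibroblast markers, and 311 to 483 and 78.6 to 222 CPM for 5 ependymal markers. Of the neuron, mural and ependymal lists, those called lower in replicates 3 and 4 were *Tubb3* and *Gad2* of the neuron list, *Pdgfrb* of the mural list and *Foxj1* of the ependymal list, and *Gap43* of the neuron list was called higher. The part of these shifts in the levels of the mitosis genes was not tested. Microglia markers were at or near 0 in both sets.

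**Figure D4:**
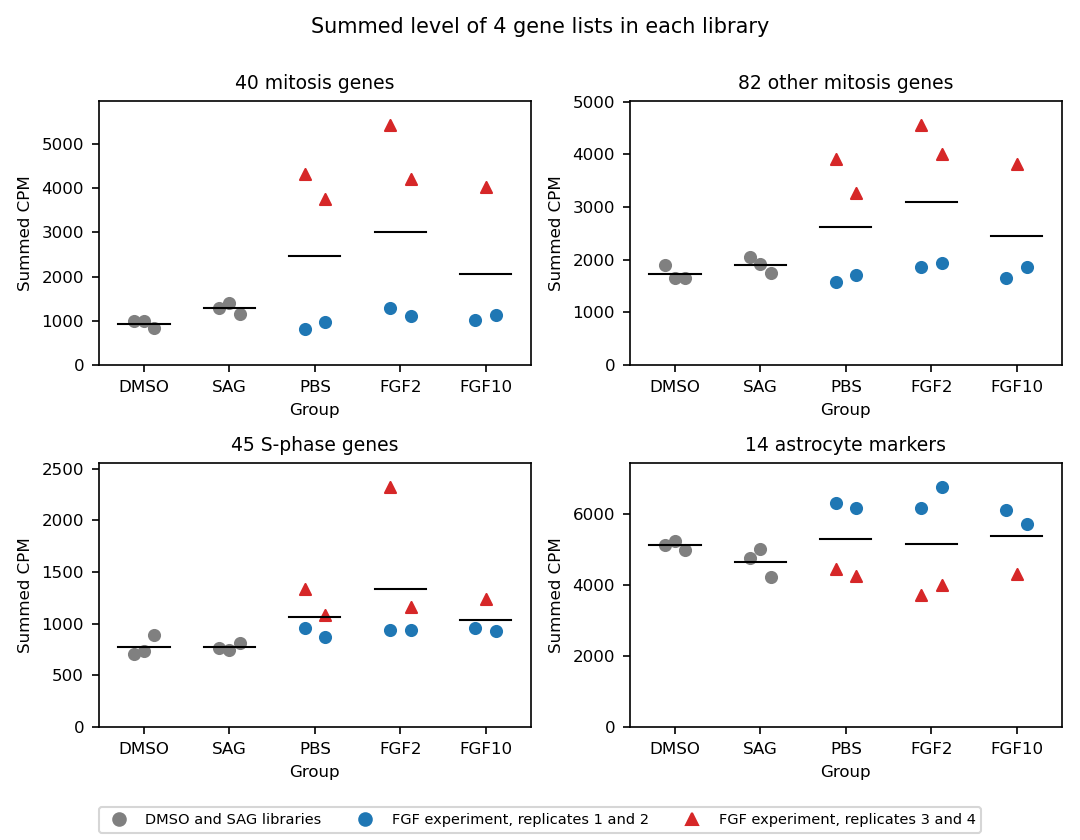
Summed CPM (vertical axis) of the 40 mitosis genes, 82 other mitosis genes, 45 S-phase genes and 14 astrocyte markers in each library, by group, with the group mean as a line. The red triangles (replicates 3 and 4) lie above the other libraries for both mitosis lists and for the S-phase genes. They lie below the blue points (replicates 1 and 2) for the astrocyte markers.

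SAG against DMSO asked how activation of the SHH pathway changes the astrocytes. Most of the 40 genes were somewhat higher with SAG, and none passed the test. Summed over the 40 genes, the mean was 937 ± 92.2 CPM in the DMSO cultures (SD, n = 3) and 1281 ± 132 CPM in the SAG cultures (SD, n = 3), and the 3 SAG libraries were all above the 3 DMSO libraries. Of 37 genes tested by edgeR, 0 were called in either direction, where 0.0479% of the 12538 genes tested were called higher and 0.016% lower. DESeq2's Wald test also called 0. The fitted value was above 0 for 30 of 37, with a median log2(fold-change) of 0.53 beside −0.02 over all genes. For 5 of 37 (13.5%: *Ckap2*, *Kif11*, *Kif4*, *Mad2l1* and *Ube2c*) every SAG library was above every DMSO library, against 5.96% of all genes. The summed level of the 14 astrocyte markers was 4212 to 5000 CPM with SAG and 4988 to 5246 CPM with DMSO. The SAG and DMSO libraries did not overlap for the oligodendrocyte precursor markers (81.0 to 127 and 189 to 216 CPM), the endothelial or mural markers (0 to 13.8 and 22.3 to 24.0 CPM) and the ependymal markers (69.4 to 145 and 151 to 263 CPM). The part of these lists in the values of the mitosis genes was not tested.

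*Top2a* had the smallest p of the 40 (0.96, standard error 0.39, unadjusted p = 0.0312 and adjusted p = 0.749 from edgeR). Of the 37 tested, *Top2a* alone was at an unadjusted p under 0.05, where 330 of all 12538 genes were higher and 384 lower. Its lowest SAG library, at 97.5 CPM, lay below its highest DMSO library, at 142 CPM. The next were *Plk1* (3.22, standard error 1.59), *Ckap2* (1.45, 0.72), *Kif11* (1.29, 0.70) and *Cenpf* (1.23, 0.67). *Plk1* shows the spread behind these values, with 57.4, 0.357 and 39.3 CPM in the SAG libraries and 2.14, 8.18 and 0.237 CPM in the DMSO libraries. *Ube2c* was even with DMSO, at 5.66 to 6.44 CPM, and was at 13.7 to 33.6 CPM with SAG. The genes with the smallest p among the 7 below 0 were *Aurkb* (−2.57, standard error 2.79), *Incenp* (−0.64), *Aurka* (−0.62), *Hmgb2* (−0.31) and *Smc4* (−0.11), of which *Smc4* is nearest to 0. *Bub1*, *Ttk* and *Ncapg* did not pass the filter on low counts. *Ncapg* was at 0 in all 3 SAG libraries and at 2.00, 7.08 and 0 CPM in the DMSO libraries. Of 72 other mitosis genes tested 0 were called, from *Kntc1* (−3.42) to *Cenpl*, which had no read with DMSO and 2.95 to 4.60 CPM with SAG. Of 43 S-phase genes 0 were called, from *Prim1* (−1.41) to *Cdc6* (1.78).

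FGF2 against PBS and FGF10 against PBS asked what each ligand changes, and they share the PBS libraries. For FGF2, 0 of 40 genes were called (0% of all 12744 genes) or reached an unadjusted p under 0.05 (109 of all genes higher and 114 lower). Of the 40 fitted values 34 were above 0, and their median log2(fold-change) was 0.19. For FGF10, 0 of 40 were called (0% of all 13309 genes) or reached an unadjusted p under 0.05 (125 of all genes higher and 180 lower). Of the 40 values 10 were above 0, and their median was −0.22. DESeq2's Wald test called 0 of the 40 in both. The PBS and FGF2 groups each hold 2 libraries of replicates 1 and 2 and 2 of replicates 3 and 4, whereas FGF10 holds 2 and 1. With the replicate set as a term in the fit of all 11 libraries, the medians were 0.34 for FGF2 and 0.17 for FGF10, so that the sign for FGF10 turned. Single libraries decided both signs. The FGF2 median was −0.10 without PBS replicate 1, −0.06 without PBS replicate 2 and −0.23 without FGF2 replicate 3, and between 0.03 and 0.67 without any other single library. The FGF10 median was 0.20 without PBS replicate 3, 0.06 without PBS replicate 4, 0.04 without FGF10 replicate 1 and 0.08 without FGF10 replicate 2, and −1.36 without FGF10 replicate 3, −0.56 without PBS replicate 1 and −0.52 without PBS replicate 2.

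Within replicates 1 and 2 the summed level of the 40 genes was 1204 CPM with FGF2, 1085 CPM with FGF10 and 890 CPM with PBS, means of 2 libraries each. Within replicates 3 and 4 it was 4818 CPM with FGF2 (2 libraries), 4021 CPM with FGF10 (1 library) and 4045 CPM with PBS (2 libraries). In replicates 1 and 2, both FGF2 libraries were above both PBS libraries for 12 of the 40 genes (17.3% of all 12744 genes) and below both for 1 (15.5%). In replicates 3 and 4 these counts were 14 (18.1% of all genes) and 0 (17.1%). Fits of FGF2 against PBS within either set called 0 of the genes. The test of whether the FGF2 response differed between the sets called 0 of the 40 genes (0.0331% of all 15100 genes were called), with 6 at an unadjusted p under 0.05 (5.11% of all genes), with the smallest adjusted p among the 40 at 0.191 from edgeR.

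Under FGF2 the genes with the smallest p above 0 were *Incenp* (0.86, standard error 0.71), *Ncapd2* (0.56, 0.51), *Birc5* (1.07, 1.12), *Mad2l1* (0.90, 1.16) and *Cdc20* (0.74, 0.98), and those below 0 were *Ttk* (−0.72, 1.28), *Smc4* (−0.19, 0.39), *Ncapg* (−0.13, 1.74), *Bub1b* (−0.06, 0.90) and *Anln* (−0.04, 0.82). The groups overlapped for all 10. Under FGF10 *Incenp* (1.08, standard error 0.64) led the genes above 0, followed by *Mad2l1* (0.77, 1.27), *Ect2* (0.95, 1.69), *Bub1b* (0.22, 0.82) and *Ncapg* (0.48, 2.13). Below 0 were *Smc2* (−0.86, 0.46), *Ncaph* (−1.69, 1.57), *Bub3* (−0.38, 0.38), *Ckap2* (−0.83, 1.03) and *Kif20a* (−0.91, 1.15). *Incenp* was at 21.2, 3.49, 53.0 and 26.3 CPM with PBS and at 50.7, 46.9 and 67.0 CPM with FGF10, and the groups overlapped. Neither ligand gave a call among the other mitosis genes, from *Zw10* (−2.47) to *Cdc25c* (2.85) with FGF2 and from *Melk* (−3.13) to *Oip5* (3.07) with FGF10. Among the S-phase genes there was none either, from *Gins3* (−1.29) to *Chaf1b* (4.04) with FGF2 and from *Chaf1a* (−1.19) to *Chaf1b* (3.56) with FGF10.

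FGF2 and FGF10 were given at the same dose for the same time and were compared with each other. Of the 40 genes 0 were called (0% of all 13493 genes) or reached an unadjusted p under 0.05 (207 of all genes higher and 117 lower). DESeq2's Wald test called 0 of the 40. The median was 0.61 with 34 of 40 above 0, and 0.14 with the replicate set as a term. Leaving out 1 library moved it from 0.15, without FGF2 replicate 3, to 1.75, without FGF10 replicate 3. *Smc2* (0.91, standard error 0.51), *Bub3* (0.53, 0.38), *Top2a* (0.76, 0.58), *Ncaph* (1.89, 1.46) and *Aurkb* (1.70, 1.39) had the smallest p above 0, and *Ttk* (−0.81, 1.26), *Ect2* (−0.90, 1.73), *Ncapg* (−0.60, 1.45), *Incenp* (−0.21, 0.54) and *Bub1b* (−0.28, 0.82) below. Other mitosis genes ran from *Cdkn3* (−1.42) to *Spdl1*, which was not above 3 counts in any FGF10 library, and S-phase genes from *Cdc6* (−1.39) to *Clspn* (1.13), with 0 called in both lists.

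**Figure D5:**
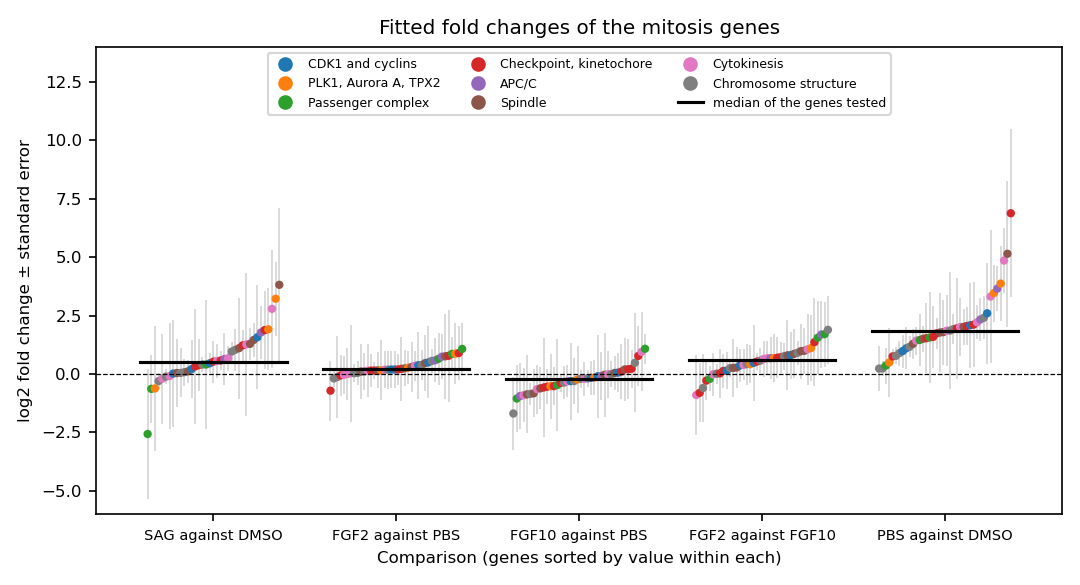
Fitted log2 fold changes (vertical axis, with standard errors in grey) of the mitosis genes tested in 5 comparisons (horizontal axis), sorted within each, with the median as a black line. The medians lie at 0.53, 0.19, −0.22, 0.61 and 1.82 from left to right, and no gene had an adjusted p under 0.05.

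The control cultures of the experiments differed at once in solvent, day of addition, days in culture (9 in PBS and 6 in DMSO) and experiment, which cannot be told apart. All 40 genes had a fitted value above 0 in PBS against DMSO, with a median log2(fold-change) of 1.82 beside 0.02 over all genes. None was called by edgeR (0% of the 13271 genes tested were called) or by DESeq2's Wald test. At an unadjusted p under 0.05 from edgeR, 16 of the 40 were higher, beside 388 higher and 192 lower of all 13271 genes. For 2 of 40, *Kif20a* and *Tpx2*, every PBS library was above every DMSO library, against 2.92% of all genes. The smallest p belonged to *Ube2c* (3.65, standard error 0.97), followed by *Kif20a* (4.86, 1.39), *Prc1* (2.21, 0.73), *Top2a* (1.92, 0.65) and *Tpx2* (3.46, 1.22). PBS replicates 1 and 2 alone gave a median of −0.09 with 12 of 38 genes above 0, and PBS replicates 3 and 4 alone a median of 2.65 with 40 of 40 above 0 and 7 called (0.203% of all genes were called), both fits chosen after seeing the data. Without a filter on low counts 11 of the 40 were called (0.185% of all genes), and when genes needed only a mean count of 10, 1 was (0.0244% of all genes), *Ube2c*. Of 77 other mitosis genes 0 were called, from *Ube2s* (−1.05) to *Melk*, which had no read with DMSO and 1.92 to 24.4 CPM with PBS, and of 44 S-phase genes 0, from *Fen1* (−1.53) to *Gins2* (2.16).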

How the data were processed

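Per the methods, 3ʹ-end libraries were sequenced, and the submitters' processing notes name STAR, DESeq2 and the build GRCm38. The authors deposited one table of raw counts per gene for the 17 libraries; 114 spike-in rows (at most 86 counts in a library) were left out. Use of molecular identifiers is not given in the sources used here, so reads may not be independent molecules. Members and lists were chosen with earlier results of these data known. Genes passed edgeR's filterByExpr (minimum count 10, minimum total 15), libraries were scaled by TMM, and each comparison was fitted to its own groups with edgeR's quasi-likelihood test (edgeR 4.0.16, limma 3.58.1, R 4.3.3; prior count 2), adjusted by Benjamini-Hochberg over all genes tested, with a threshold of 0.05. The script was tested on simulated data. Values in every library are given for 14 readout genes chosen by name. In each comparison the text names every called member and the 5 with the smallest p in each direction, and of the 2 other cell cycle lists the called genes or the extremes. *Ccnb2*, *Plk1*, *Incenp* and other members outside these were described to cover each role. Alternatives were DESeq2 (1.42.0), its size factors, other filters, all 5 groups in one fit, a replicate block, the replicate set and leaving out each library. One marker gene's result is not reported here.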

Additional observations from a re-analysis of the deposited data

Results flagged for a closer look

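Of 82 groups of values tested for a library far from the others of its group, 2 were flagged. The rule flags about 1 in 20 by chance where the libraries of a group come from a single population. That rate need not hold here, since PBS and FGF2 each hold 2 libraries of either replicate set. *Bub1*, a checkpoint kinase, was at 23.4 CPM in PBS replicate 3 and at 0 to 2.17 CPM in the other PBS libraries. *Ect2*, the RhoA exchange factor of cytokinesis, was at 24.6 CPM in FGF2 replicate 3 and at 0 to 1.88 CPM in the other FGF2 libraries.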

How the results depend on the processing

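In PBS against DMSO, 0 of the 40 genes were called, but 11 were without a filter on low counts (36 of all 19491 genes), 1 with a mean count of at least 10 (4 of 16364), and 7 with PBS replicates 3 and 4 only (28 of 13764). With PBS replicates 1 and 2 only, the median was −0.089, *Prc1* was at −0.017 and *Top2a* at −0.00075. Deviations from the group mean correlated weakly between libraries of the same replicate number. The correlations were 0.033 to 0.104 in the comparisons within the FGF experiment and −0.014 to 0.012 in the SAG and PBS comparisons with DMSO. Within the FGF experiment, the best-correlated library of the other group was always from the same replicate set. Such low values cannot decide whether samples were paired by number. With the replicate block the SAG median was 0.41, and no call of a mitosis gene changed. Leaving out 1 library gave a SAG median of 0.37 to 0.72, and 22 to 31 genes called between the replicate sets. In FGF2 against PBS the sign turned for *Ncapg* (3.87 with the replicate block, 2.19 with the replicate set as a term, 11.26 within replicates 1 and 2, where both PBS libraries were at 0, so that this is no bound), *Anln* (0.21, 0.28 and 0.72) and *Bub1b* (0.014 within replicates 3 and 4). In FGF2 against FGF10 it turned for *Ncapg* (0.97 with the block, 0.33 within replicates 1 and 2) and *Smc2* (−0.028 within replicates 1 and 2). Leaving out 1 library turned signs over these ranges: with SAG, *Hmgb2* −0.65 to 0.021 and *Smc4* −0.50 to 0.10; FGF2 against PBS, *Ncapg* −0.58 to 1.46, *Bub1b* −0.48 to 0.30, *Anln* −0.48 to 0.76 and *Ttk* −1.40 to 0.78; FGF10 against PBS, *Bub1b* −0.33 to 0.58, *Mad2l1* −0.21 to 1.40 and *Ncapg* −0.78 to 2.07; FGF2 against FGF10, *Incenp* −0.64 to 0.076, *Bub1b* −0.70 to 0.27 and *Ncapg* −1.19 to 0.66. The causes were not tested. Over all genes, calls between the sets numbered 586, 3103 by DESeq2, 812 without a filter, 856 with a mean count of at least 10 and 209 at an adjusted p under 0.01 with a log2(fold-change) above 1. For SAG they numbered 8, 394 by DESeq2, 76 and 42 with those filters, 4 with all groups, 33 with the block and 4 at the stricter threshold. DESeq2 called 123 genes for FGF2, 102 for FGF10, 91 between them and 194 for PBS against DMSO, where edgeR called 0.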
